A study of Mus musculus with 6 samples.

Results

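The 10 genes described here are the core effectors and kinases of the mouse Hippo pathway together with the large cadherins *Fat4* and *Dchs1*. The rule lists them by name and uses no measured value, but the genes were chosen with earlier results of these data known. They are the co-activators *Yap1* and *Wwtr1* (TAZ), the transcription factors *Tead1*, *Tead2*, *Tead3* and *Tead4*, the kinases *Lats1* and *Lats2*, and the Fat-Dchs pair. All 10 were found among the 28777 genes of the count table, and all 10 passed the filter on low counts. Bulk RNA-Seq was performed on cardiac outflow tracts (OFT), the embryonic vessel segment from which the semilunar valves and the base of the aorta and pulmonary artery form. The tissue came from mouse embryos at stage E13.5. Of the 6 libraries, 3 carry the label of compound mutants, heterozygous for *Notch1* and null for *Nos3* (*Notch1*+/-; *Nos3*-/-), and 3 carry the wildtype label. Each library was made from 3 pooled OFTs, 18 in all, so a library averages several embryos, and the alleles were carried by all cells of the embryo.

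In the Hippo pathway, the kinases LATS1 and LATS2, themselves activated by the MST kinases, phosphorylate YAP and TAZ and keep these co-activators out of the nucleus. Unphosphorylated YAP and TAZ enter the nucleus and bind TEAD proteins, which supply the contact with DNA. FAT4 and DCHS1 are giant protocadherins that bind each other across neighbouring cells and act in planar cell polarity. Loss of *Dchs1*, or of YAP and TAZ, is known to disturb heart development in mice. Transcript levels do not report phosphorylation or nuclear entry, through which most of the pathway's control is exerted.

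The promoter sequences of 3 of these genes are shown because each holds the 6-base core recognized by the TEAD proteins, GGAATG, and because *Tead3* had the largest fold change of the 10 genes. RefSeq windows on GRCm38.p6, running from 250 bases before to 50 bases after each start site, were matched for 7 of the 10 genes, in 11 windows, and not for *Tead1*, *Tead4* or *Dchs1*. They are written 5′ to 3′ on the strand of the gene, with matches to GGAATG (or CATTCC, the same letters on the other strand) and to TGGGAA, the core bound by RBPJ, the DNA-binding partner of Notch, in capitals.
*Tead3* start site 1, chr17:28350756-28351055, minus strand: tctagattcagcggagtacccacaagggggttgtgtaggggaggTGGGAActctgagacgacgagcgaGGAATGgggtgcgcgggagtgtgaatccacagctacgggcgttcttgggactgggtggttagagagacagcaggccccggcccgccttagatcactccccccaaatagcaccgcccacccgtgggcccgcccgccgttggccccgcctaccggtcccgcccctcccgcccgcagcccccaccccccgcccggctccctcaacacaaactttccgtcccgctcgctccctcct
*Tead3* start site 2, chr17:28350551-28350850, minus strand: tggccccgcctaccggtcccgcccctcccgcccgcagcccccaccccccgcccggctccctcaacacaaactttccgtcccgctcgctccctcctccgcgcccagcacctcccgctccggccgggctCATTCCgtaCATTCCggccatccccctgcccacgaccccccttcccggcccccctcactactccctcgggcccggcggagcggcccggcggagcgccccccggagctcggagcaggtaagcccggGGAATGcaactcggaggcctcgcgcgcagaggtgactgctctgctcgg
*Yap1*, chr9:8004547-8004846, minus strand: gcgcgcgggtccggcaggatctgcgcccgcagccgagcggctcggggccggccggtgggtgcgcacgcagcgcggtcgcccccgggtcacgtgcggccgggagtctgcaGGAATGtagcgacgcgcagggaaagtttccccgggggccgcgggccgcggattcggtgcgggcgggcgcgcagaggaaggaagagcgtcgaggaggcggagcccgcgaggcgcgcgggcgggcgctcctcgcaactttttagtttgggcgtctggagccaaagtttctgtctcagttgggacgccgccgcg
*Wwtr1* start site 1, chr3:57575861-57576160, minus strand: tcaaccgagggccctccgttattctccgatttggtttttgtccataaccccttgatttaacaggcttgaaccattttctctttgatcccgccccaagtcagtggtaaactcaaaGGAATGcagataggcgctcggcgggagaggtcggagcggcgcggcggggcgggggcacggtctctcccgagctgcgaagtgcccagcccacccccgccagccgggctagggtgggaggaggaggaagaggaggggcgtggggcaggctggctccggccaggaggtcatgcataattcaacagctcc

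Counted from the start site, *Tead3* window 1 held GGAATG from position -182 and TGGGAA from -206, and window 2 held CATTCC from -123 and from -114 and GGAATG from position 3. Windows 1 and 2 overlap, and the letters in capitals lie outside the stretch they share. The match in *Yap1* began at -141 and that in *Wwtr1* at -136. *Lats2* held GGAATG from position 5 of its first window. In *Tead2* the window held TGGGAA on the other strand from -35, and the third *Tead3* window held it from -40. The windows of *Lats1* and *Fat4* held neither core. Both cores are short and common: GGAATG, on either strand, was present in 14.7% of the 32851 mouse promoter windows and TGGGAA in 25.6%. A match describes letters in a window and not a bound site.

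Depth was between 34729103 and 44387490 counts per library, and levels are given as CPM, which are counts scaled to sequencing depth, after TMM normalization. The targeted genes were examined to check the labels. *Notch1* had 74.3, 88.2 and 83.6 CPM in the wildtype libraries and 155, 161 and 139 in those labelled mutant. It was higher under the mutant label by 0.89 on the log2 scale (edgeR adjusted p = 0.0313), although this label gives 1 lost allele. Counts per gene do not separate the alleles, and the cause was not tested. *Nos3* had 31.8, 47.2 and 48.1 CPM under the wildtype label and 22.1, 22.0 and 20.4 under the mutant label. It was lower by a log2 difference of -0.98 (edgeR adjusted p = 0.128, DESeq2 adjusted p = 9.14e-06), and its transcripts were still counted under the null label. Groups are therefore named by their labels throughout. Wildtype replicate 1 was more like the 3 libraries labelled mutant than like the other wildtype libraries. Over 16655 genes its log2 CPM correlated at 0.986 to 0.989 with the former and at 0.983 and 0.978 with the latter. Wildtype replicate 3 had the lowest correlation with each library labelled mutant, 0.964 to 0.981. For the genes and ratios wildtype replicate 1 moves most, values are given with and without it. Leaving out the wildtype library most like the mutant label tends to widen differences between the labels. Values without it are therefore no separate support for a difference.

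Among the 10 genes, *Tead3* and *Dchs1* had the largest fold changes between the labels and *Yap1* had the smallest. By the quasi-likelihood test of edgeR, with p-values adjusted by Benjamini-Hochberg over 28157 genes, 0 of the 10 passed an adjusted p of 0.05, where 6 of all genes (0.0213%) passed. At an unadjusted p under 0.05, 2 of the 10, *Tead3* and *Dchs1*, were higher under the mutant label and 0 were lower. Over all genes the shares were 8.23% higher and 7.83% lower, and 10.2% higher among the 16655 genes that averaged 1 CPM or more. DESeq2 called *Tead3* and *Dchs1* higher, where it called 1.46% of all genes higher, and 401 of the 16655 genes with at least 1 CPM. Without wildtype replicate 1, edgeR called 4 of the 10 higher, *Tead3*, *Dchs1*, *Fat4* and *Wwtr1*, where 4.15% of the 27450 genes then tested were called higher. Among the 16655 genes with at least 1 CPM, 1080 were called higher in that fit. With any other library left out, 0 of the 10 and 1 to 3 of all genes were called. The 3 libraries of a group did not overlap with the other group for 1 of the 10, *Tead3*. That was so for 10.7% of all genes in the higher direction, for 8.94% in the lower, and for 10.8% in the higher direction among genes with at least 1 CPM.

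**Figure D1:**
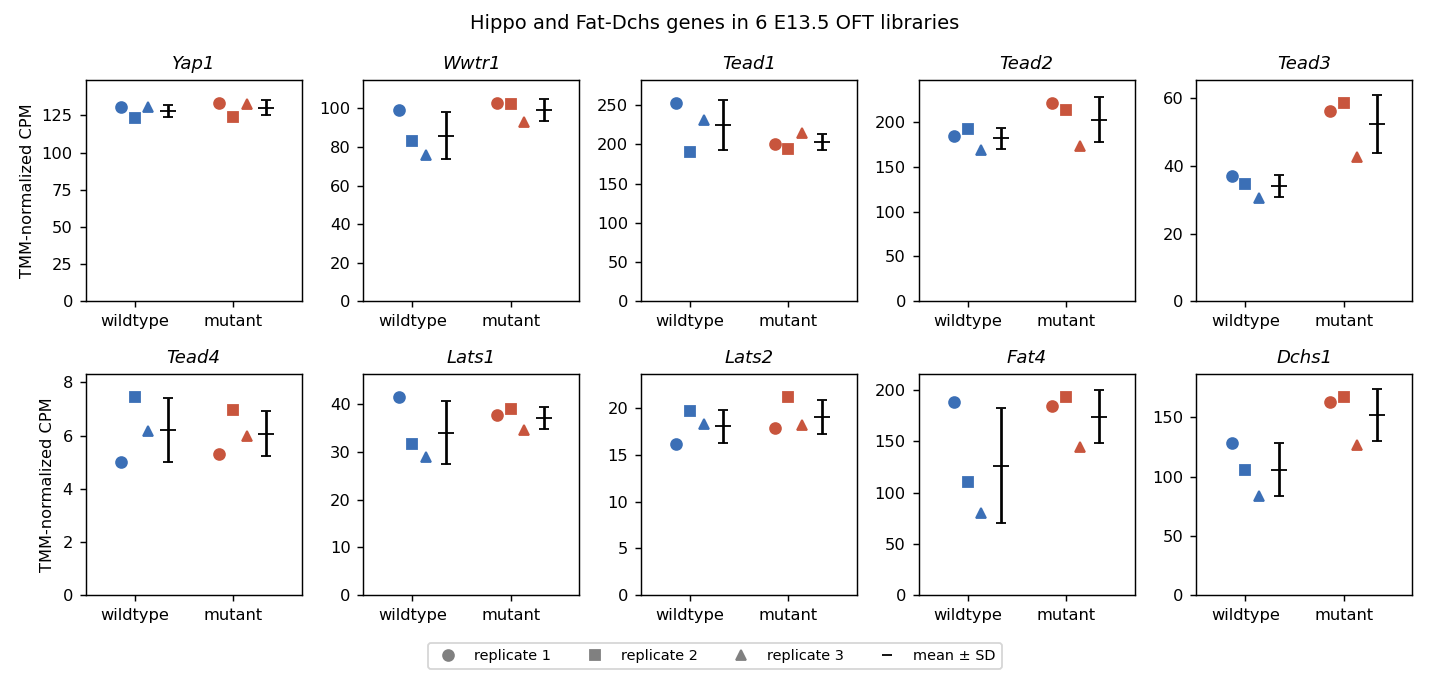
TMM-normalized CPM (vertical axes, each from 0) of the 10 genes in the 3 wildtype and 3 mutant-labelled libraries; point shapes mark replicates and black bars the group mean ± SD. *Tead3* is the only panel in which the groups do not overlap, with wildtype values up to 37.1 and mutant values from 42.5, while the *Yap1* points lie between 123 and 133.

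*Yap1*, which encodes the co-activator YAP, varied little in these libraries. Its levels were 130.4, 123 and 131 CPM in the wildtype libraries and 133, 124 and 133 CPM in the libraries labelled mutant. The groups overlapped almost fully. Means were 128 ± 4.34 CPM (SD, n = 3) and 130.1 ± 5.05 (SD, n = 3), a log2 fold change of 0.02 with a 95% interval from -0.18 to 0.22 (edgeR adjusted p = 0.927). The coefficient of variation was 3.39% within the wildtype group and 3.88% within the mutant group, each the smallest of the 10 genes.

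*Wwtr1* encodes TAZ, the paralog of YAP. It had 99.2, 82.9 and 75.7 CPM in the wildtype libraries and 103, 102 and 92.9 CPM in those labelled mutant. Wildtype replicate 1 lay among the mutant values, and the other wildtype libraries lay below all of them. The means were 85.9 ± 12.0 and 99.3 ± 5.57 CPM (SD, n = 3 each), a log2 difference of 0.21 with a 95% interval from -0.04 to 0.46 (edgeR adjusted p = 0.390). Without wildtype replicate 1 it was 0.32 (edgeR adjusted p = 0.0475), and without wildtype replicate 3 it was 0.13 (edgeR adjusted p = 0.734).

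*Tead3* encodes a TEAD factor with a high level in placenta and in several embryonic tissues. Its level was 37.1, 34.6 and 30.5 CPM in the wildtype libraries. In the libraries labelled mutant it was 56.0, 58.4 and 42.5 CPM. Every mutant library was above every wildtype library, and mutant replicate 3 was closest to the wildtype range. The means were 34.0 ± 3.33 and 52.3 ± 8.53 CPM (SD, n = 3 each), a fold of 1.54. On the log2 scale the difference was 0.62 ± 0.132 (SE) with a 95% interval from 0.33 to 0.91. *Tead3* ranked 122 of 28157 genes by p, with a Benjamini-Hochberg adjusted p of 0.165 in the edgeR quasi-likelihood test and of 0.00567 in DESeq2. Without wildtype replicate 1 the log2 difference was 0.69 (edgeR adjusted p = 0.0249). With any other library left out, edgeR's adjusted p was between 0.0917 and 0.642.

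The groups overlapped for each of the other TEAD genes. *Tead1* had 252, 190.3 and 231 CPM in the wildtype libraries and 201, 194 and 215 CPM in those labelled mutant. The mutant values lay inside the wildtype range, with a log2 difference of -0.14 and a 95% interval from -0.40 to 0.11. It was -0.05 without wildtype replicate 1 and -0.25 without wildtype replicate 2. *Tead2*, the TEAD factor best known from the early embryo and neural tissue, had 184, 192 and 168 CPM in the wildtype libraries and 220.3, 213 and 173 CPM in those labelled mutant. Its groups overlapped through mutant replicate 3, and the log2 difference was 0.16, with a 95% interval from -0.10 to 0.41. *Tead4*, required for the trophectoderm lineage, was low throughout, at 5.02, 7.44 and 6.19 CPM against 5.30, 6.96 and 5.97 CPM, which came from 201 to 309 reads per library. Its log2 difference was -0.03, and its interval, from -0.44 to 0.37, was the widest of the TEAD genes.

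As shares of the summed TEAD level, on a scale of CPM per kilobase of merged exons, *Tead3* made up 8.64%, 8.39% and 7.76% in the wildtype libraries and 11.8%, 12.5% and 10.6% in those labelled mutant. The groups did not overlap, with means of 8.27% ± 0.455 and 11.6% ± 0.997 (SD, n = 3 each). A share within a library does not depend on how libraries were scaled. The two-sided exact permutation test gave p = 0.1, the smallest p that 3 against 3 libraries allow, and 0.467 after Benjamini-Hochberg adjustment over 7 ratios. *Tead2* made up most of the family in every library, with 61.9% ± 3.03 and 63.2% ± 2.54 (exact permutation p = 0.7). *Tead1* held 27.0% ± 3.61 and 22.6% ± 3.23 (exact permutation p = 0.2), and *Tead4* held 2.83% ± 0.602 and 2.55% ± 0.40 (exact permutation p = 0.5).

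**Figure D2:**
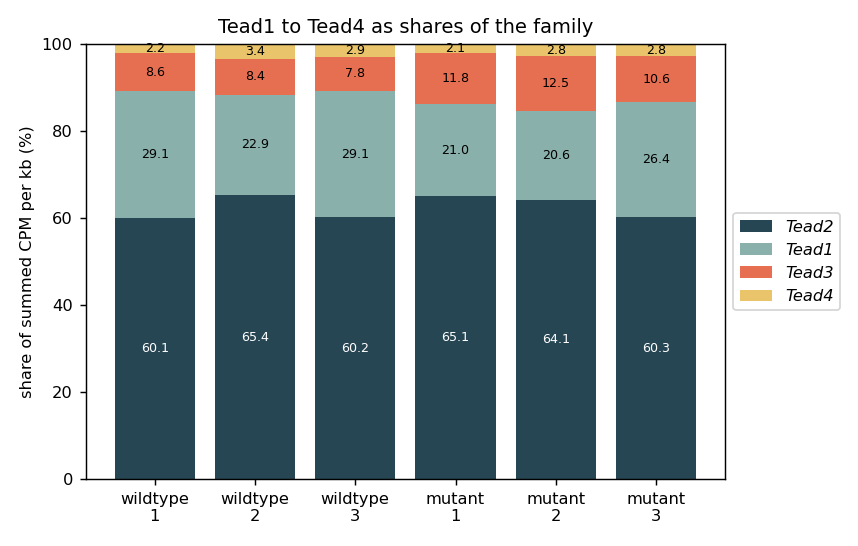
Stacked bars show each TEAD gene as a percentage of the summed CPM per kilobase of the 4 TEAD genes, 1 bar per library, from 0 to 100%. The *Tead3* segment covers 7.8% to 8.6% in the wildtype bars and 10.6% to 12.5% in the mutant bars, and *Tead2* is the largest segment in all 6.

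Neither LATS kinase gene differed detectably. *Lats1* had 41.4, 31.7 and 28.8 CPM in the wildtype libraries and 37.7, 39.1 and 34.5 CPM in those labelled mutant. All mutant values lay inside the wildtype range, which wildtype replicate 1 stretched upwards. The log2 difference was 0.12, with a 95% interval from -0.17 to 0.42, and it was 0.29 without wildtype replicate 1 (edgeR adjusted p = 0.0852) and 0.02 without wildtype replicate 3 (edgeR adjusted p = 0.971). *Lats2* had 16.2, 19.7 and 18.3 CPM against 17.9, 21.2 and 18.2 CPM, with overlapping groups, a log2 difference of 0.08 and a 95% interval from -0.19 to 0.35. The 2955 exon bases that *Lats2* shares on the same strand with the predicted gene Gm49361, which the count table does not list, make its level uncertain.

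*Fat4* and *Dchs1*, which encode the receptor-like and ligand-like partners of the pair, were the next genes after *Tead3* by fold change. *Dchs1* had 128, 105 and 83.7 CPM in the wildtype libraries and 163, 167 and 126 CPM in those labelled mutant. The groups overlapped only where wildtype replicate 1 met mutant replicate 3. The means were 106 ± 22.3 and 152 ± 22.3 CPM (SD, n = 3 each), a fold of 1.44. The log2 difference was 0.52 ± 0.159 (SE) with a 95% interval from 0.17 to 0.87. *Dchs1* had an adjusted p of 0.205 in edgeR and of 0.0462 in DESeq2. Without wildtype replicate 1 the log2 difference was 0.68 (edgeR adjusted p = 0.0256), and without wildtype replicate 3 it was 0.38 (edgeR adjusted p = 0.475). With any other library left out, edgeR's adjusted p was between 0.123 and 0.642.

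*Fat4* was the most variable of the 10 genes under the wildtype label. It had 189, 111 and 79.9 CPM in the wildtype libraries, which differ by 2.37-fold among themselves, and 185, 193 and 145 CPM in those labelled mutant. Wildtype replicate 1 lay among the mutant values and the other wildtype libraries lay below them. The coefficient of variation was 44.5% under the wildtype label and 14.9% under the mutant label. The means were 126 ± 56.2 and 174 ± 25.9 CPM (SD, n = 3 each), a log2 difference of 0.46 ± 0.252 (SE) with a 95% interval from -0.10 to 1.02 (edgeR adjusted p = 0.389, DESeq2 adjusted p = 0.494). The value rested on single libraries: it was 0.87 without wildtype replicate 1 (edgeR adjusted p = 0.0209) and 0.22 without wildtype replicate 3 (edgeR adjusted p = 0.736). The antisense gene C230034O21Rik, which shares 1209 exon bases with *Fat4*, had a mean of 2.71 CPM, far below *Fat4*.

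The ratio of the pair was nearly constant in the libraries labelled mutant. The ratio of *Fat4* to *Dchs1*, per kilobase, was 0.948, 0.676 and 0.614 in the wildtype libraries and 0.731, 0.745 and 0.738 in those labelled mutant. The group means were 0.746 ± 0.177 and 0.738 ± 0.00673 (SD, n = 3 each), with an exact permutation p of 1. Wildtype replicate 1 decided this value: without it the wildtype ratios lay below all mutant ratios, with a log2 difference of 0.20 (exact permutation p = 0.1, the smallest that 2 against 3 libraries allow). The ratio of *Yap1* to *Wwtr1* was 0.679, 0.766 and 0.890 in the wildtype libraries and 0.669, 0.626 and 0.739 in those labelled mutant, and the groups overlapped (exact permutation p = 0.2). *Lats2* to *Lats1* was 0.575 ± 0.144 against 0.539 ± 0.0370 (exact permutation p = 1), and its log2 difference went from -0.06 to -0.29 without wildtype replicate 1 (exact permutation p = 0.1).

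**Figure D3:**
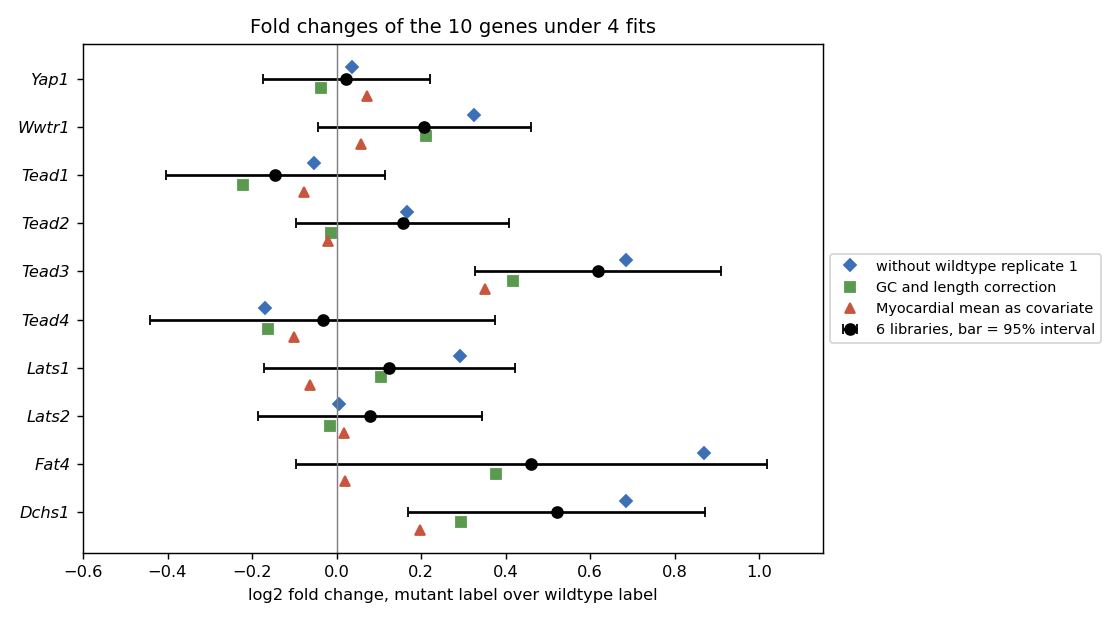
The log2 fold change of each gene, mutant over wildtype label, in the fit of all 6 libraries (black, with its 95% interval), without wildtype replicate 1 (blue), after correction for GC content and length (green), and with the mean of the myocardial markers as a covariate (red). *Tead3* keeps the highest value under the last 2 of these and *Fat4* spans 0.02 to 0.87.

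Several cell types contribute RNA to an OFT, and in bulk samples fewer cells of a type and less RNA per cell cannot be told apart. Markers of all 9 cell types examined were detected. The summed level of 8 mesenchymal markers, such as the collagen gene Col1a1, ranged from 4172 to 8241 CPM under the wildtype label and from 7599 to 9741 under the mutant label, and 5 of the 8 were higher at an unadjusted p under 0.05. That of 10 myocardial markers, such as the myosin gene Myh7, ranged from 23323 to 33773 CPM and from 16052 to 22512. Of the 10, 7 were lower at that threshold, Myh7 among them. Of 7 blood markers 5 were lower, and their sum ranged from 4225 to 10202 CPM under the wildtype label and from 5108 to 5386 under the mutant label. Of 6 vascular smooth muscle markers 2 were higher and 2 lower. The endothelial, neural crest and glia, and neuronal lists each held 1 higher and 0 lower. The epicardial and macrophage lists held 0 of either. Over all genes 8.23% were higher and 7.83% lower at this threshold. The neural crest and glia marker *Foxd3* was not among the genes of the table, and no other marker was at 0 in every library.

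The libraries high for *Fat4* were those high for the mesenchymal list. As log2 deviations from the mean of the 6 libraries, *Fat4* stood at 0.40, -0.37 and -0.84 in the wildtype libraries and at 0.37, 0.43 and 0.01 in those labelled mutant, and the mean of the mesenchymal markers at 0.29, -0.43 and -0.89 and at 0.45, 0.46 and 0.12. *Dchs1* stood at 0.03, -0.25 and -0.58 and at 0.38, 0.41 and 0.01. *Tead3* differed in wildtype replicate 1, where it lay below its mean by 0.18. The myocardial markers stood at 0.04, 0.09 and 0.66 in the wildtype libraries and at -0.31, -0.67 and 0.18 in those labelled mutant. Each marker counts alike in this mean, and *Nppa* varied most among them, from 7.84 to 212 CPM. By this mean mutant replicate 3 lay above wildtype replicates 1 and 2, while its summed level lay below every wildtype library. The mean tended to be lower under the mutant label, so as a covariate it cannot be fully told apart from the label. With the myocardial mean as a covariate, the log2 difference was 0.02 for *Fat4*, 0.20 for *Dchs1*, 0.06 for *Wwtr1* and 0.35 for *Tead3*, each with an edgeR adjusted p of 0.661 or more. The part of the mesenchymal and blood markers in these differences was not tested.

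**Figure D4:**
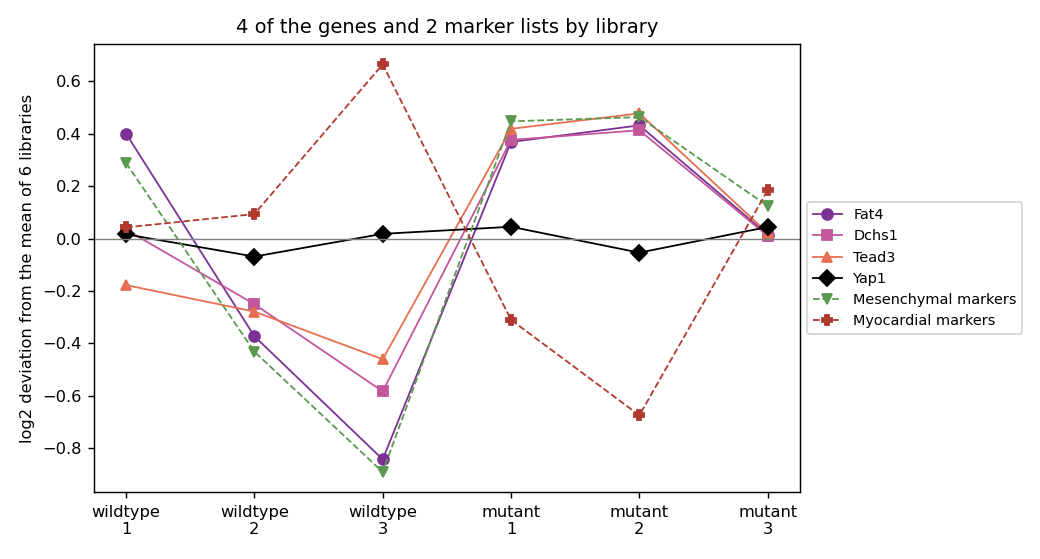
Log2 deviation from the mean of the 6 libraries (vertical axis) for *Fat4*, *Dchs1*, *Tead3* and *Yap1* (solid lines) and for the means of the mesenchymal and myocardial marker lists (dashed lines), by library; lines join libraries for legibility and imply no order. *Fat4* and the mesenchymal list are lowest in wildtype replicate 3, at -0.84 and -0.89, where the myocardial list is highest at 0.66, while *Yap1* stays between -0.07 and 0.04.

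Base composition also differed among the 10 genes. The longest transcripts of *Tead2*, *Tead3*, *Tead4* and *Dchs1* hold 57.9% to 58.5% GC, against 43.0% to 46.5% in *Yap1*, *Wwtr1*, *Tead1* and *Lats1*. The median over the protein-coding genes of the table was 49.7%. After each library was corrected for GC content and length, the log2 difference was 0.42 for *Tead3*, 0.29 for *Dchs1*, 0.38 for *Fat4* and -0.01 for *Tead2*, with edgeR adjusted p-values of 0.209, 0.300, 0.431 and 0.960.

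Levels of different genes were compared as CPM per kilobase of merged exons, averaged over the 6 libraries. *Tead2* was highest at 40.1 CPM per kilobase, followed by *Wwtr1* at 19.4, *Tead1* at 15.8 and *Yap1* at 13.9. The cadherin genes lay in the middle, *Dchs1* at 11.7 and *Fat4* at 8.76. *Tead3* at 6.43, *Lats1* at 4.87, *Lats2* at 2.66 and *Tead4* at 1.71 CPM per kilobase completed the order. The order of neighbours held in 6 of 6 libraries except for *Wwtr1* over *Tead1* (5 of 6), *Yap1* over *Dchs1* (4 of 6) and *Tead3* over *Lats1* (5 of 6), which are not separated beyond the spread of the libraries. The co-activators and *Tead1* and *Tead2* were each at a higher level per length than either kinase gene in every library. With the longest transcript in place of merged exons, 5 of the 10 genes kept their rank. *Yap1* moved to rank 2, *Wwtr1* to rank 4 and *Tead3* to rank 5, above *Dchs1* and *Fat4*, so the order of these genes depends on the length used.

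The positions of these genes on mm10 (GENCODE M21) place 3 of them on chromosome 7. They are *Tead1* (chr7:112679318-112906807, plus strand), *Tead2* (chr7:45215753-45233644, plus strand) and *Dchs1* (chr7:105752990-105787654, minus strand). *Wwtr1* (chr3:57455649-57575910, minus strand) and *Fat4* (chr3:38886940-39011985, plus strand) lie on chromosome 3. *Tead3* spans chr17:28331671-28350817 on the minus strand and *Yap1* chr9:7931999-8004596 on the minus strand. *Tead4* lies at chr6:128224288-128300823 (minus strand), *Lats1* at chr10:7681214-7716460 (plus strand) and *Lats2* at chr14:57689662-57758388 (minus strand). Counts cover all exons of a gene, untranslated parts included, and *Fat4* has the longest merged exons of the 10 at 17165 bases, against a median of 4113 over protein-coding genes.

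The remainder of the pathway was read from 5 lists, also chosen with earlier results of these data known. Beside them, 14406 of all 28157 genes had a fold change above 0 and the median log2 fold change was 0.01. The 10 genes had a median of 0.14, which was 0.05 after the GC and length correction, 0.02 with the myocardial covariate and 0.24 with library size only, where the median of all genes was 0.11. None of the list genes passed the adjusted p of 0.05 in edgeR or in DESeq2, and without wildtype replicate 1 edgeR called 11 of them higher, with *Ptpn14*, which stands in more than 1 list, counted once. In that fit 4.15% of all genes were called higher, and 1080 of the 16655 genes with at least 1 CPM. Over all 6 libraries 5 of 8 mesenchymal markers were higher at an unadjusted p under 0.05, and their part in the list counts was not tested.

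Upstream of LATS, the core cascade differed little. Of 12 kinases and adaptors, 2 were higher at an unadjusted p under 0.05 (8.23% of all genes) and 0 were lower (7.83%), with a median log2 fold change of 0.04. The MST kinase genes *Stk4* and *Stk3* had log2 fold changes of -0.05 and -0.21. *Stk3* was lower in all mutant libraries than in all wildtype libraries, as were 8.94% of all genes. For the scaffold *Sav1*, the LATS cofactors *Mob1a* and *Mob1b*, and *Nf2* (merlin), the log2 fold changes were 0.00, 0.10, -0.01 and -0.02. The higher genes were *Taok2*, a kinase that can activate MST kinases, at 0.23, and *Stk38*, a relative of LATS, at 0.23, and the groups of both did not overlap (10.7% of all genes in this direction).

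Among 15 scaffold and junction genes, 5 were higher at an unadjusted p under 0.05 and 0 were lower, with a median of 0.07, beside 10.2% higher among all genes with at least 1 CPM. They were *Wwc1* (KIBRA) at 0.56, *Frmd6* at 0.39, *Rassf1* at 0.37, *Ajuba*, a LIM protein that binds LATS, at 0.29, and *Ptpn14*, a phosphatase that binds YAP, at 0.28. For 3 of the 15, *Rassf1*, *Ajuba* and *Scrib*, the groups did not overlap in the higher direction, as for 10.7% of all genes. *Wwc1* had 15.7, 13.51 and 10.7 CPM in the wildtype libraries and 21.4, 22.5 and 15.2 CPM in those labelled mutant.

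Of the vestigial-like cofactors, which compete with YAP and TAZ for TEAD proteins, 3 of 4 were tested. *Vgll4* had 51.2, 51.4 and 58.4 CPM in the wildtype libraries and 67.7, 66.1 and 60.5 CPM in those labelled mutant. Its groups did not overlap, as for 10.7% of all genes in the higher direction. The log2 difference was 0.27 with a 95% interval from 0.06 to 0.49 (edgeR adjusted p = 0.24). *Vgll3* was at 0.71 with an interval from -0.05 to 1.47, on a mean of 4.95 CPM.

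In the remainder of the Fat-Dchs family 0 of 5 genes reached an unadjusted p under 0.05, and the median was 0.20. *Fat1*, the most abundant relative of *Fat4*, had 396, 207 and 199 CPM in the wildtype libraries and 364, 368 and 305 CPM in those labelled mutant, with wildtype replicate 1 again above the other wildtype libraries. Its log2 difference was 0.37, with a 95% interval from -0.13 to 0.87, and 0.77 without wildtype replicate 1 (edgeR adjusted p = 0.0127). *Dchs2* was at 0.20 and *Fjx1*, the relative of the cadherin kinase four-jointed, at 0.10.

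The list of 22 YAP and TAZ target genes held 5 that were higher at an unadjusted p under 0.05 and 0 that were lower, with a median of 0.11, beside 8.23% of all genes higher and 10.2% of those with at least 1 CPM. They were the extracellular regulator *Ccn2* (CTGF) at 0.38, the membrane-repair gene *Myof* at 0.54, *Arhgef17* at 0.31, and *Ajuba* and *Ptpn14*, named above. Of the 22 targets, 15 had a fold change above 0 and 7 below, among the latter *Ankrd1*, the most abundant, at -0.05. *Ccn2* had 75.7, 51.9 and 54.6 CPM in the wildtype libraries and 86.4, 73.8 and 76.8 CPM in those labelled mutant, so that wildtype replicate 1 overlapped the mutant values. Its log2 difference without that library was 0.57 (edgeR adjusted p = 0.0186). In that fit edgeR called 7 of the 22 higher, against 4.15% of all genes and 1080 of the 16655 genes with at least 1 CPM.

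**Figure D5:**
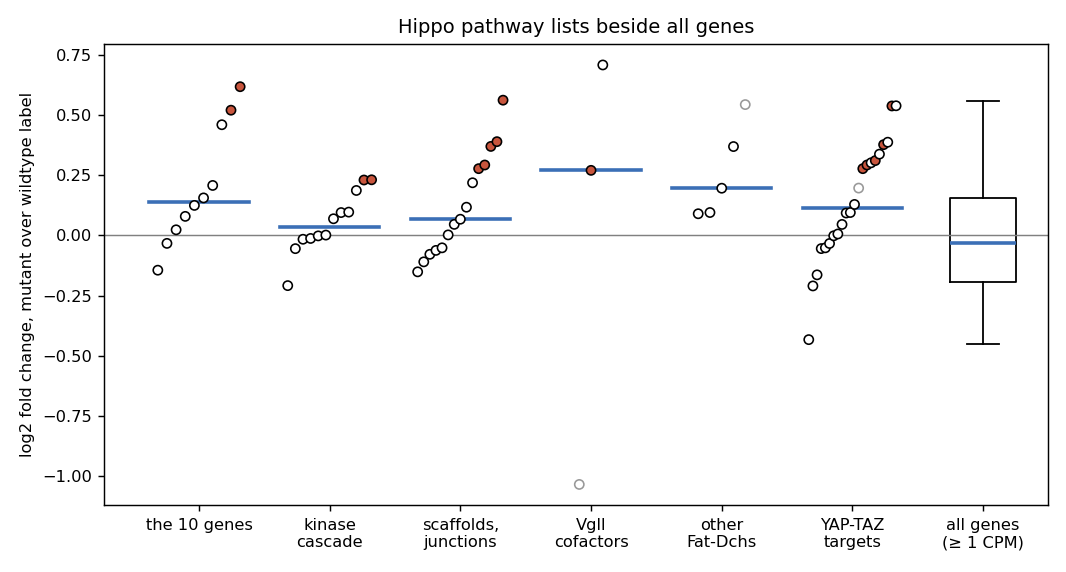
Log2 fold change, mutant over wildtype label, of the 10 genes and of each gene of 5 pathway lists; filled points have an unadjusted p under 0.05 in edgeR, grey outlines mark a mean under 1 CPM, and blue lines are medians. The box gives the quartiles and the 5th to 95th percentiles of the 16655 genes with at least 1 CPM, whose median is -0.03, and the medians of the lists lie between 0.04 and 0.27.

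The genes whose profile over the 6 libraries was most like that of *Fat4* were *Rai14*, *Pak1* and *Syt11*. Likeness was the root mean square distance between log2 CPM values centred on each gene's mean. It was 0.0464, 0.0520 and 0.0532 for these genes, against a deviation of *Fat4* itself of 0.470 on the same scale. For *Dchs1* they were *Evc*, *Arhgef25* and *Pmepa1*, at 0.0259, 0.0349 and 0.0380 against 0.345. These distances describe 6 libraries and carry no test.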

How the data were processed

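RNA from E13.5 OFTs was sequenced in 6 libraries of 3 pooled OFTs each, after rRNA depletion with a stranded kit. The deposited values are counts per gene: per the labels, the authors aligned reads to mm10 with TopHat2 2.1.0 and Bowtie2 and counted reads on exons. The annotation release and the strand setting of the counting are not given in the sources used here. Depth was 34729103 to 44387490 counts per library. The error terms hold counting error and variation among libraries, with no separate term for dissection.

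Groups follow the labels. The titles and descriptions of wildtype replicates 2 and 3 give opposite library numbers, so these numbers are uncertain. The members and the gene lists were chosen with earlier results of these data known.

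A gene entered the test with more than 5 reads in the 6 libraries together, which 28157 genes had. In R 4.3.3, edgeR 4.0.16 scaled them by TMM and applied its quasi-likelihood test, and p-values were adjusted by Benjamini-Hochberg over all of them, with a threshold of 0.05. DESeq2 1.42.0 and limma-voom (limma 3.58.1), other scalings and filters, GC and length offsets, a myocardial covariate, a replicate block and leaving out each library were alternatives. Ratios were compared by two-sided exact permutation tests (scipy 1.17.1, Python 3.11.15). Positions, lengths and GC content came from GENCODE M21, which holds 28723 of the 28777 identifiers. Promoter windows came from RefSeq.

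The genes named were the 10 members, the targeted genes, the core cascade, the genes of each list with an unadjusted p under 0.05 (or its 3 largest fold changes with at least 1 CPM, where fewer than 3 reached it), and the 3 profiles nearest to *Fat4* and *Dchs1*. *Gm49361* and *C230034O21Rik* were named for overlap of exons, after the files were seen. *Scrib* was named because it completed a count, *Ankrd1* as the most abundant target and *Nppa* as the most variable myocardial marker. The scripts were tested on simulated data. In a simulation with the spread of these data, 200 genes were changed, the raised ones by a median log2 difference of 1. There edgeR recovered 188 with 14 false calls, and DESeq2 193 with 41. *Tead3*, the largest change of the 10 genes, was at 0.62, so these counts do not give the power for them. Where replicates were made to differ, edgeR recovered 0 of 200 without a block and 200, with 24 false calls, with it. Where counts were made to depend on GC content, edgeR made 10749 false calls uncorrected and 17 after correction. The main fit used neither block nor correction.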

Additional observations from a re-analysis of the deposited data

How the results depend on the processing

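Of the 10 genes, 0 were called over all 6 libraries, 2 by DESeq2, 3 with the replicate block, 3 with the block and the GC and length correction together, and 0 to 4 with a library left out. Over all genes 6 were called, against 749 by DESeq2, 1577 with the block, 83 with the block after wildtype replicates 2 and 3 were exchanged, 2279 with the block and the GC and length correction, and 1 to 2593 with a library left out. Of the genes in the pathway lists 0 were called, against 7 with the block, 8 with the block and the correction, and 0 to 11 with a library left out; 11 was reached without wildtype replicate 1. The replicate numbers were not shown to pair the libraries: same-numbered libraries correlated in their deviations from the group means at 0.10, 0.16 and 0.42, and wildtype replicate 1 correlated best with mutant replicate 2. With the block, the log2 differences of *Tead3*, *Dchs1* and *Fat4* were 0.61, 0.53 and 0.54 (edgeR adjusted p = 0.00192, 0.00632 and 0.0261), and with the exchanged numbers none of the 10 was called. Differences near 0 changed sign. *Yap1* was at -0.037 after the GC and length correction and -0.035 with the block added, and ran from -0.0049 (without wildtype replicate 2) to 0.055 with a library left out. *Tead2* was at -0.012 under both corrections and at -0.020 with the myocardial covariate, under which *Lats1* was at -0.063. *Tead4* was at 0.076 with library size only and at 0.057 without mutant replicate 1, and ran from -0.17 to 0.12 (without wildtype replicate 2) with a library left out. *Lats2* was at -0.014 after the correction and -0.012 with the block added, and ran from -0.0014 (without mutant replicate 2) to 0.15. The log2 ratio of *Lats2* to *Lats1* ran from -0.29 to 0.06, at 0.043 without wildtype replicate 2 and 0.061 without wildtype replicate 3, and that of *Fat4* to *Dchs1* from -0.12 to 0.20 (without wildtype replicate 1), at -0.048 without wildtype replicate 2, with a library left out. Levels kept their rank for 5 of 10 genes with the longest transcript as length. Without TMM the median over all genes was 0.11, against 0.01 with it. The cause of these changes was not tested. Counts of 201 to 309 reads for *Tead4* limit its precision.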
